A study of Mus musculus with 23 samples.

Results

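The genes described here carry the last steps of carbohydrate digestion and glucose uptake in the small intestine: 4 disaccharidases of the brush border (Sis, Lct, Treh and Mgam) and 2 glucose transporters (Slc5a1 and Slc2a2). They were picked for their role, leaving out the genes of fructose handling, and their rows were read by Ensembl identifier from the table of raw counts, so they are 6 of the 55487 genes in it. RNA sequencing had been done on whole jejunum, freed of fat and Peyer's patches, in 23 libraries. Of these, 12 came from Cpa3+/+ (wild type) mice and 11 from Cpa3Cre/+ mice, which the series' design text calls mast cell-deficient. Each genotype was sampled in 5 states. Naive mice were untreated (3 Cpa3+/+ and 2 Cpa3Cre/+ libraries). For immunization, ovalbumin (25 µg) and alum (2 mg) were injected into the peritoneum on day 0 and again on day 14 (2 and 2 libraries). Challenged mice were immunized likewise and from day 20 chose between a bottle of water and a bottle of water holding 20% egg white and 8% sugar, for 1 day (3 and 2 libraries), 3 days (2 and 2) or 5 days (2 and 3). What each mouse drank of the sugar solution, the kind of sugar, the ages and whether 2 libraries of the same group stem from 2 animals are not given in the sources used here. The p-values below thus speak of library-to-library spread only, part of which may be technical. Females gave 18 libraries. Of the 5 male libraries 1 was Cpa3+/+ naive replicate 3 and 4 were Cpa3Cre/+, 1 per state except day 5, so sex was a term of the model.

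Dietary starch and sugars reach the jejunum as oligosaccharides and disaccharides, which enzymes anchored in the apical membrane of absorptive enterocytes split into single sugars. Sucrase-isomaltase (Sis) and maltase-glucoamylase (Mgam) are related enzymes that cleave sucrose, maltose and starch fragments, lactase (Lct) cleaves milk sugar, and trehalase (Treh) cleaves trehalose, a sugar of fungi and insects. Glucose then crosses the apical membrane with sodium through SGLT1, the product of Slc5a1, and leaves the cell towards the blood through GLUT2, the product of Slc2a2.

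Total counts per library ran from 5.48 to 19.34 M with a median of 13.81 M, and all 6 genes passed the filter on low counts, as did 17236 genes in all. Cpa3, the targeted gene, lay lower in every Cpa3Cre/+ library than in every Cpa3+/+ library of the same state after immunization and on each challenge day. Among naive libraries, the one labelled Cpa3Cre/+ naive replicate 1 held 1.07 CPM of Cpa3 (CPM is the share of a library's reads on a fixed scale, here with TMM factors), inside the Cpa3+/+ naive range of 0.827 to 1.84 CPM, so this gene did not check that label. The same library stood apart in its tissue makeup: 14 epithelial structure genes summed to 5633 CPM in it against 11128 to 21979 CPM in the other 22, and 7 smooth muscle genes summed to 7696 CPM against 964 to 4403 CPM. Results that rest on it are given with and without it. The epithelial genes all had reads in every library, while 8 pancreatic enzyme genes summed to 0.101 to 0.968 CPM and none of them passed the filter.

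On GRCm38 the 6 genes lie at separate places, Sis (ENSMUSG00000027790) at chr3:72888557-72967863 on the minus strand, Lct (ENSMUSG00000026354) at chr1:128284756-128328318 on the minus strand, and Treh (ENSMUSG00000032098) at chr9:44673233-44686305 on the plus strand. Mgam (ENSMUSG00000068587) lies at chr6:40628831-40769123, Slc5a1 (ENSMUSG00000011034) at chr5:33104219-33162870 and Slc2a2 (ENSMUSG00000027690) at chr3:28697903-28731359, all 3 on the plus strand. Treh shares its span with Phldb1 on the opposite strand, which held 8366 reads in all libraries against 187579 for Treh. The other overlapping genes held at most 86 reads beside 668316 for Slc5a1. The strand setting of the counting is not given in the sources used here, so reads of the overlapping pairs cannot be told apart with certainty. The 250 bases before the start of the 4 disaccharidases are printed because the levels of Sis and Mgam followed each other most closely of all pairs across libraries while Treh and Mgam did so least. They are RefSeq sequences (GRCm38.p6), 5′ to 3′ on the strand of the gene, ending at the base before the start. Sis spans chr3:72967864-72968113, Mgam chr6:40628581-40628830, Lct chr1:128328319-128328568 and Treh chr9:44672983-44673232. Capitals mark matches on either strand to 4 short motifs. TTTATG is a core bound by CDX factors, which set intestinal identity. The letters GATAA stand for factors of the GATA family. Nuclear receptors of the HNF4 type are stood for by CAAAGT. The TATA box was read as TATAAA.
Sis: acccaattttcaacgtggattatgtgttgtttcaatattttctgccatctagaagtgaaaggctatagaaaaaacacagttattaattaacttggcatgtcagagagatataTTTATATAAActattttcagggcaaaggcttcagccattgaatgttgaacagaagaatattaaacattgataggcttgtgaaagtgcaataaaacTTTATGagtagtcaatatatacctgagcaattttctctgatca
Mgam: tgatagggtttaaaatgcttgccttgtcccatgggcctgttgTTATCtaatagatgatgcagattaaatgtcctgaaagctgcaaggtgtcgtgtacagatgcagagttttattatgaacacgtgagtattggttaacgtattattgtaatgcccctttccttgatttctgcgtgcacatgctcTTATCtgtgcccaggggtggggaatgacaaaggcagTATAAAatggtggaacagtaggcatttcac
Lct: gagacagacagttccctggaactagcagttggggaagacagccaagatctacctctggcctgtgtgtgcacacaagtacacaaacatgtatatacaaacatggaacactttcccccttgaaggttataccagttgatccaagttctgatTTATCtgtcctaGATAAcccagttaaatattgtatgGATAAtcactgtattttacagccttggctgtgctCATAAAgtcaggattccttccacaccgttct
Treh: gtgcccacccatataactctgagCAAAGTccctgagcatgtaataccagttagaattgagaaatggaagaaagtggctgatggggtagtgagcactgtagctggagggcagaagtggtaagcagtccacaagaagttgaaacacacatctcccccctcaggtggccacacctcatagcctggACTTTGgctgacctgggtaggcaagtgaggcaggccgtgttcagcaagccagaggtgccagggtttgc
The Sis window held TTTATG starting 43 bases before the start and a pair of overlapping TATAAA matches that run together in the print. Lct also had TTTATG, in reverse, 31 bases before the start, and 3 GATAA matches that begin 101, 89 and 65 bases before it. Mgam had TATAAA 30 bases before the start and 2 GATAA matches in reverse, and Treh had 2 CAAAGT matches, the nearer one 68 bases before its start. The Slc2a2 window held 1 GATAA and 1 CAAAGT match and the Slc5a1 window held none of these letters. Among 27025 promoter windows of the same length, 11.1% held TTTATG, 23% GATAA, 12.5% CAAAGT and 13% TATAAA, against 2, 3, 2 and 2 of the 6 genes. A match is a description of letters and not a binding site.

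Per kilobase of annotated exon, Slc5a1 and Sis were the most abundant of the 6 transcripts, with 555 ± 190 and 538 ± 203 CPM per kb (SD, n = 23). Slc5a1 was above Sis in 14 of 23 libraries by this length and in all 23 by coding length, so their order across libraries depended on the length used. Treh (305 ± 121), Lct (282 ± 102) and Mgam (266 ± 101 CPM per kb) formed a middle group whose neighbours overlapped: Treh was above Lct in 13 libraries and Lct above Mgam in 15. Slc2a2 was the least abundant with 76 ± 34.4 CPM per kb and lay below Mgam in all 23 libraries. With coding length the means kept this order, but Slc2a2 (279) came close to Mgam (309 CPM per coding kb) and lay below it in 15 of 23 libraries. By group mean per kilobase of exon, Sis led Slc5a1 in both naive and both immunized groups and in Cpa3+/+ on day 5, and Slc5a1 led in both genotypes on days 1 and 3 and in Cpa3Cre/+ on day 5. Without regard to length, the 6 transcripts summed to 0.414 to 2% of the library size scaled by TMM factors, with a median of 1.19%. The plain share of reads differs from this by the TMM factor of each library.

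**Figure D1:**
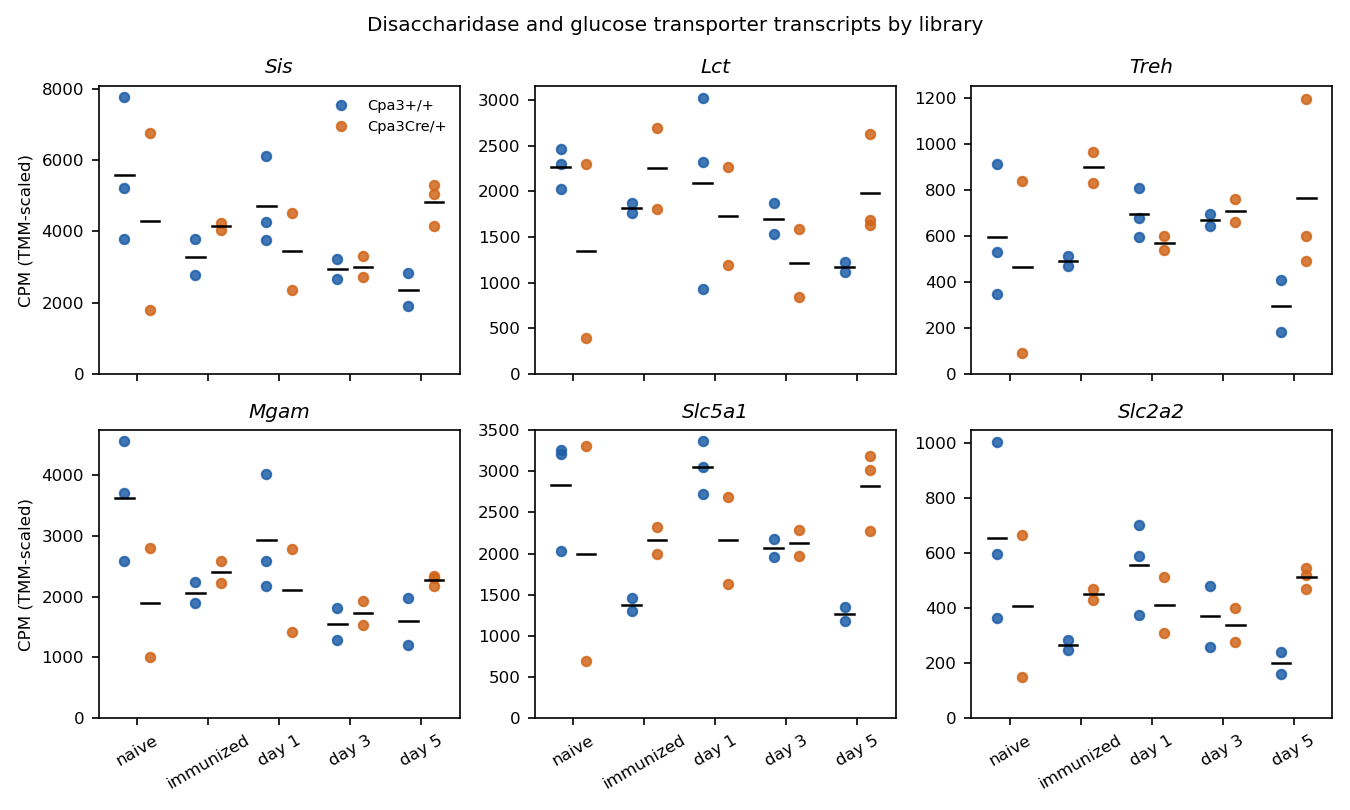
Level of each gene in CPM scaled by TMM factors (vertical axis, from 0) in the 23 libraries by state (horizontal axis), with 1 point per library, coloured by genotype, and a bar at the group mean. On day 5 all 3 Cpa3Cre/+ points lie above both Cpa3+/+ points in every panel, as for 15.2% of all genes tested. The lowest point of every panel is the library labelled Cpa3Cre/+ naive replicate 1.

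Sucrase-isomaltase was among the most abundant messages in the tissue. In Cpa3+/+ jejunum, Sis stood at 3773, 5224 and 7774 CPM in naive libraries, 3788 and 2775 after immunization, 3752, 4250 and 6111 on day 1, 3232 and 2656 on day 3, and 2843 and 1896 on day 5. In Cpa3Cre/+ jejunum it stood at 1802 and 6750 CPM, 4045 and 4243, 4520 and 2363, 2721 and 3307, and 5287, 5037 and 4149 in the same order of states. The genotypes overlapped in the naive state and on days 1 and 3. On day 5 the 3 Cpa3Cre/+ libraries were all above the 2 Cpa3+/+ libraries, as for 15.2% of all genes tested. The Cpa3+/+ day 5 libraries were low among all 23, with 1896 CPM the second lowest value of the gene.

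Maltase-glucoamylase, the relative of sucrase-isomaltase, had its highest level in naive wild-type jejunum. Mgam stood at 2593, 3717 and 4569 CPM in naive Cpa3+/+ libraries, 1891 and 2243 after immunization, 2171, 2597 and 4022 on day 1, 1810 and 1292 on day 3, and 1985 and 1201 on day 5. The Cpa3Cre/+ values were 1002 and 2808 CPM, 2585 and 2221, 2795 and 1414, 1535 and 1933, and 2340, 2177 and 2315. The genotypes overlapped in every state but day 5, where the lowest Cpa3Cre/+ library (2177 CPM) lay only a little above the highest Cpa3+/+ library (1985 CPM). Sis and Mgam kept a narrow ratio to each other, 1.24 to 2.4 over the 23 libraries on the CPM scale.

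Lactase ranged 7.62-fold from lowest to highest library. Without the library labelled Cpa3Cre/+ naive replicate 1 its range was 3.59-fold, beside 4.1-fold for Sis and 3.8-fold for Mgam. Lct stood at 2031, 2300 and 2463 CPM in naive Cpa3+/+ libraries, 1760 and 1877 after immunization, 2324, 936 and 3022 on day 1, 1870 and 1528 on day 3, and 1230 and 1120 on day 5. The Cpa3Cre/+ values were 397 and 2302 CPM, 1809 and 2693, 2266 and 1196, 841 and 1590, and 1689, 1634 and 2624. Cpa3+/+ day 1 replicate 2 was low for Lct with 936 CPM while its Sis level of 4250 CPM was between those of the other Cpa3+/+ day 1 libraries. The ratio of Sis to Lct was accordingly 4.54 in that library, equal to the 4.54 of the library labelled Cpa3Cre/+ naive replicate 1, and 1.48 to 3.23 in the other 21.

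Trehalase had the widest range of the 6, 13.3-fold from lowest to highest library, and 6.59-fold beside 6.19-fold for Slc2a2 without the library labelled Cpa3Cre/+ naive replicate 1. Treh stood at 348, 533 and 913 CPM in naive Cpa3+/+ libraries, 512 and 471 after immunization, 810, 679 and 596 on day 1, 699 and 644 on day 3, and 182 and 408 on day 5. The Cpa3Cre/+ values were 90.4 and 841 CPM, 968 and 834, 600 and 539, 663 and 761, and 603, 492 and 1199. Both Cpa3Cre/+ immunized libraries lay above both Cpa3+/+ ones, as for 24.9% of all genes tested. On day 5 the lower Cpa3+/+ library (182 CPM) was the second lowest of all 23. Relative to Mgam, Treh ranged from 0.0903 to 0.518, the broadest ratio between disaccharidases computed here.

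The apical sodium-glucose transporter Slc5a1 stood at 2034, 3212 and 3254 CPM in naive Cpa3+/+ libraries, 1454 and 1306 after immunization, 2727, 3052 and 3367 on day 1, 2173 and 1954 on day 3, and 1175 and 1351 on day 5. In Cpa3Cre/+ libraries it stood at 699 and 3301 CPM, 2326 and 1998, 2685 and 1633, 2286 and 1969, and 3183, 2269 and 3010. In wild-type jejunum all 3 day 1 libraries were above both immunized libraries, as for 13.2% of all genes tested. Day 3 lay between these states and day 5 was back near the immunized level. In Cpa3Cre/+ jejunum the highest challenge values came on day 5.

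The basolateral transporter Slc2a2 followed a like course at a lower level. Its Cpa3+/+ values were 363, 597 and 1005 CPM in naive libraries, 284 and 246 after immunization, 590, 376 and 701 on day 1, 480 and 260 on day 3, and 162 and 240 on day 5. The Cpa3Cre/+ values were 151 and 665 CPM, 430 and 470, 513 and 308, 277 and 401, and 521, 546 and 469. Slc5a1 reads exceeded Slc2a2 reads 3.24 to 8.24 times, with no correction for length. In both the immunized state and on day 5, every Cpa3Cre/+ library was above every Cpa3+/+ library for Slc2a2. The same held for 24.9% of all genes tested in the immunized state and 15.2% on day 5.

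Comparing the genotypes addresses what differs in the jejunum of mast cell-deficient mice. On day 5 of challenge all 6 genes had higher means in Cpa3Cre/+ jejunum, none past the threshold. The log2 fold change of Slc2a2 was 1.35 ± 0.48 (SE), that of Treh 1.37 ± 0.57, that of Slc5a1 1.16 ± 0.46 and that of Sis 1.03 ± 0.47, each with an edgeR adjusted p of 0.524. Lct and Mgam had 0.75 and 0.52 with adjusted p of 0.609 and 0.635. The median of the 6 was 1.09 beside −0.031 over all genes tested. Of the 6 genes 0 were called by edgeR and 0 by DESeq2, and 4 had an unadjusted p under 0.05. Over all genes edgeR called 0 of 17236 (0%), DESeq2 15, and 1596 (9.26%) had an unadjusted p under 0.05. All 6 genes separated the 3 Cpa3Cre/+ from the 2 Cpa3+/+ day 5 libraries upwards, as did 15.2% of all genes tested. Leaving out any 1 of the 23 libraries left all 6 fold changes positive, which that separation made nearly certain in advance. Treh ran from 0.88 without Cpa3Cre/+ day 5 replicate 3 to 2.03 without Cpa3+/+ day 5 replicate 2, and Mgam from 0.17 without Cpa3+/+ day 5 replicate 2 to 0.91 without Cpa3+/+ day 5 replicate 1.

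Some summed levels of markers of other cells and of the villus axis were also apart on day 5, although 0 of the genes of these lists passed (lowest edgeR adjusted p = 0.524). Of all genes tested, 15.2% were higher and 14.6% lower in every Cpa3Cre/+ than in every Cpa3+/+ day 5 library. The epithelial structure genes summed to 11128 and 11781 CPM in Cpa3+/+ libraries and 12208 to 21979 CPM in Cpa3Cre/+ libraries, and 7 villus tip genes to 821 and 1163 against 2140 to 2824 CPM. In the other direction, 9 crypt and cycling genes summed to 2159 and 2349 CPM in Cpa3+/+ and 1091 to 2008 CPM in Cpa3Cre/+ libraries. The sum of 12 Paneth, goblet, enteroendocrine and tuft cell genes was also lower, 5610 to 9965 against 11348 and 16218 CPM, but 6 of the 12 had positive fold changes and their median was 0.11 with TMM and −0.29 with epithelial scaling, so with TMM the sum and the median differ in direction. The smooth muscle sum overlapped between genotypes, at 2694 and 2832 CPM in Cpa3+/+ and 1030 to 3193 CPM in Cpa3Cre/+ libraries. The part of these levels in the day 5 difference was not tested. In bulk tissue fewer enterocytes and less RNA per enterocyte cannot be told apart. With size factors taken from the summed epithelial genes instead, the 6 day 5 fold changes stayed positive, from 0.12 to 0.97 with a median of 0.70, while the median of all genes moved to −0.42. Per 100 reads of the epithelial genes, Treh (4.03 to 5.45 against 1.54 and 3.66), Slc5a1 (13.7 to 22.9 against 9.98 and 12.1) and Lct (11.9 to 13.4 against 10.1 and 10.4) were still above both Cpa3+/+ libraries in all 3 Cpa3Cre/+ libraries, as were 3.6% of all genes tested on that scale. Sis, Mgam and Slc2a2 overlapped on that scale. The 6 genes together had 62.6 such reads in Cpa3Cre/+ day 5 replicate 3, between the Cpa3+/+ values of 55.9 and 64.3. Replicates 1 and 2 had 97.9 and 99.6. Replicate 3 and the library labelled Cpa3Cre/+ naive replicate 1 lay farthest apart of all libraries on the first principal component (71.3 and −106).

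**Figure D2:**
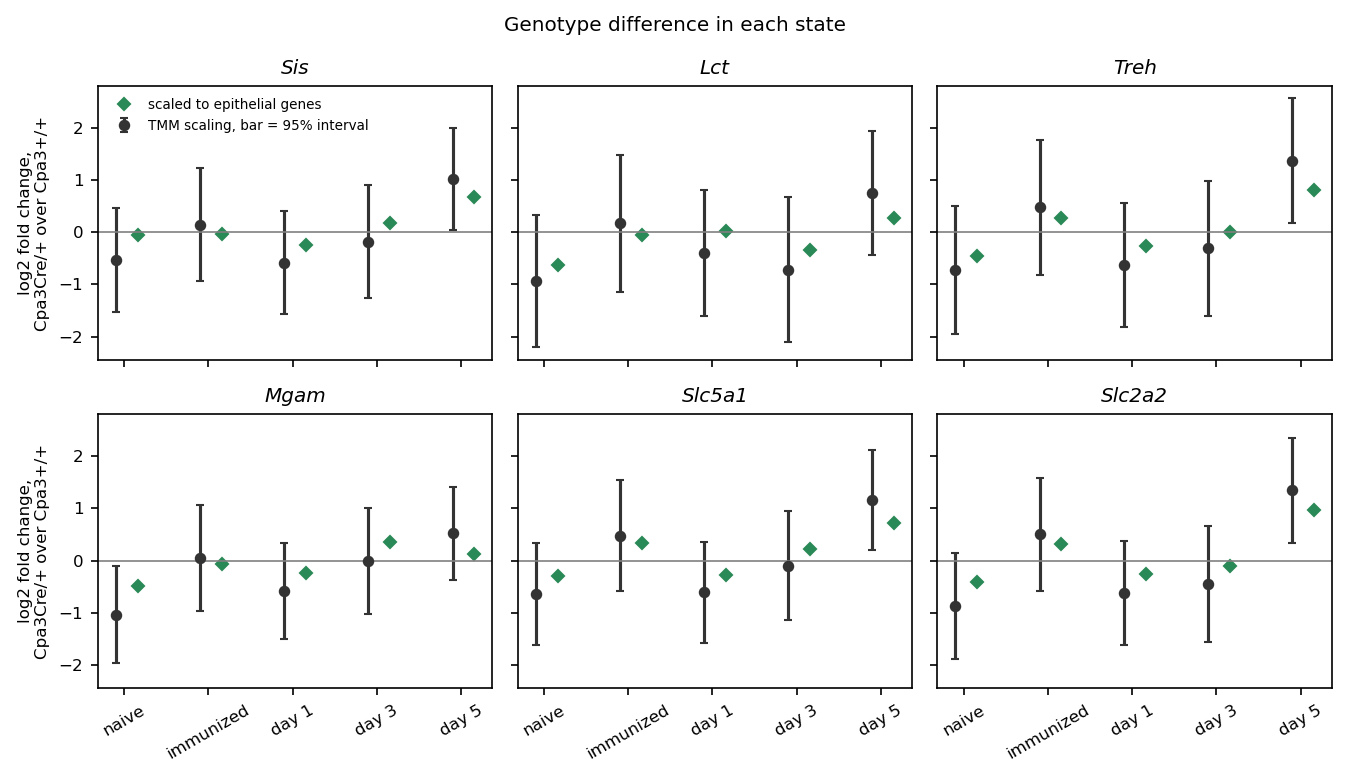
Log2 fold change of Cpa3Cre/+ over Cpa3+/+ (vertical axis) for each gene in each state (horizontal axis), with TMM scaling (dots, bars are 95% intervals) and scaled to the epithelial structure genes (diamonds). Dots and diamonds are above 0 on day 5 in every panel, the dots from 0.52 to 1.37. Dots are below 0 in the naive state and on day 1, where 1 diamond is above 0.

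In naive jejunum the 6 fold changes were all negative, −1.04 to −0.53 with a median of −0.80 (all genes 0.048), and 0 of the 6 passed (0% of all genes passed, 921 genes had an unadjusted p under 0.05). Mgam was the 1 gene with an unadjusted p under 0.05, at −1.04 ± 0.44 (edgeR adjusted p = 0.9). This state rests on 1 library: without the library labelled Cpa3Cre/+ naive replicate 1, 4 of the 6 were positive and the median was 0.14, and without Cpa3Cre/+ naive replicate 2 the median was −2.12 with a lowest adjusted p of 0.0544. The 7 smooth muscle genes were all positive in this comparison under each scaling, with a median of 1.40 with TMM factors, and their part in the difference was not tested. Scaled to the epithelial genes the 6 stayed negative with a median of −0.44, beside 0.86 for all genes. Per 100 epithelial reads the library had 73.5 reads of the 6 genes together, the lowest of the 5 naive libraries, which ranged to 110.

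After immunization all 6 were positive, 0.045 to 0.50 with a median of 0.33, and 0 passed (0% of all genes, 164 with an unadjusted p under 0.05). Sis, Treh, Slc5a1 and Slc2a2 were higher in both Cpa3Cre/+ than in both Cpa3+/+ libraries, but so were 24.9% of all genes tested, and scaled to the epithelial genes 3 of the 6 were negative. On day 1 all 6 were negative, −0.63 to −0.39 with a median of −0.60, and 0 passed (0% of all genes, 1274 with an unadjusted p under 0.05). These values turned on the Cpa3Cre/+ day 1 pair: the median was −1.60 without replicate 1 and −0.12 without replicate 2, where Lct was positive at 0.087. On day 1 the 7 smooth muscle genes were all positive with a median of 0.80, as were 6 of 8 genes of the B cell follicle and T cells with a median of 2.34, and their part in the difference was not tested. Slc5a1 was the 1 gene whose 2 Cpa3Cre/+ day 1 libraries (2685 and 1633 CPM) lay below all 3 Cpa3+/+ libraries (2727 CPM or more), beside 9.56% of all genes, and 5 of the 6 were negative with epithelial scaling. On day 3 the 6 fold changes ran from −0.72 to −0.017 and 0 passed (0% of all genes, 267 with an unadjusted p under 0.05). With epithelial scaling 4 of these were positive. The fold changes come from the model with a sex term, and Cpa3Cre/+ day 3 replicate 2 was male. Plain group means on day 3 were higher in Cpa3Cre/+ than in Cpa3+/+ jejunum for Sis (3014 against 2944 CPM) and Treh (712 against 671). The same held for Mgam (1734 against 1551) and Slc5a1 (2128 against 2063), and Lct and Slc2a2 were lower. The part of the sex term in this was not tested. DESeq2 called none of the 6 in any of these 3 states.

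Averaged over the 5 states with equal weight, the genotype difference of the 6 genes was near 0: the fold changes ran from −0.22 (Lct and Mgam) to 0.055 (Slc5a1), with a standard error of 0.22 for Mgam and 0.23 for Slc5a1. The 95% interval was −0.67 to 0.24 for Mgam and −0.43 to 0.54 for Slc5a1, so differences within these bounds were not resolved. Of the 6 genes 0 were called by edgeR, beside 0.029% of all genes tested, and 0 had an unadjusted p under 0.05. Without the library labelled Cpa3Cre/+ naive replicate 1 the averaged fold changes ran from −0.022 (Mgam) to 0.35 (Treh). In the other direction, Lct was at −0.57 without Cpa3Cre/+ day 1 replicate 1. Whether the genotypes differed in their response to challenge was tested with an interaction term. The response of Cpa3Cre/+ minus that of Cpa3+/+ had a median over the 6 genes of −0.91 on day 1, −0.68 on day 3 and 0.76 on day 5, and 0 genes were called by edgeR in each (0% of all genes), with a lowest adjusted p among the 6 of 0.845, 1 and 1. None of the 6 had an unadjusted p under 0.05 in these 3 tests, and DESeq2 called none. The comparisons share the immunized libraries, so their values are set side by side and not as independent evidence.

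After immunization alone none of the 6 genes passed the threshold. Averaged over genotypes, immunized minus naive ran from −0.36 (Slc5a1) to 0.69 (Treh), 0 of 6 were called by edgeR or DESeq2 and 0% of all genes were, with 1885 genes at an unadjusted p under 0.05. These values too turned on the Cpa3Cre/+ naive pair: without replicate 1 they ran from −0.85 (Slc5a1) to 0.10 (Treh). Without replicate 2 all 6 were positive, with Treh at 1.55. By genotype, comparisons added after values had been seen, the median was −0.63 in Cpa3+/+ jejunum with 5 of 6 negative and 0.38 in Cpa3Cre/+ jejunum with 6 of 6 positive, and 0 were called in each (0% of all genes). The most negative fold changes in Cpa3+/+ jejunum were those of the transporters, −0.92 ± 0.46 for Slc5a1 and −1.03 ± 0.49 for Slc2a2 (edgeR adjusted p = 1 for each). Without the library labelled Cpa3Cre/+ naive replicate 1, 5 of 6 were negative in Cpa3Cre/+ jejunum too, with a median of −0.30. Without Cpa3Cre/+ naive replicate 2 the median there was 1.62, with replicate 1 as the only naive library. The direction in Cpa3Cre/+ mice thus depended on which naive library was kept. Per 100 epithelial reads the 6 genes together had 73.5 to 110 reads in the 5 naive and 54.3 to 70.8 in the 4 immunized libraries. How many of all genes separate these libraries likewise on that scale was not counted. Scaled to the epithelial genes, immunized minus naive was −0.65 ± 0.22 for Slc5a1, −0.69 for Slc2a2, −0.60 for Sis and −0.53 for Mgam, each with an edgeR adjusted p of 0.231. Lct and Treh were positive on it, at 0.051 and 0.43 (edgeR adjusted p = 0.887 and 0.263), while the median of all genes was −0.55 on that scaling.

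Among immunized and challenged wild-type groups, day 1 of the sugar and egg white choice had the highest mean levels of both transporters. In Cpa3+/+ jejunum day 1 minus immunized was 1.14 ± 0.45 for Slc5a1 and 1.07 ± 0.47 for Slc2a2 (edgeR adjusted p = 0.847 for each), and the other 4 genes had 0.20 to 0.52. Slc5a1, Slc2a2 and Treh were higher in all 3 day 1 than in both immunized Cpa3+/+ libraries, as were 13.2% of all genes tested. Of the 6 genes 0 were called by edgeR or DESeq2 (0% of all genes by edgeR), 2 had an unadjusted p under 0.05, and the median was 0.51 beside 0.012 over all genes. Leaving out any 1 library kept Slc5a1 between 1.04 and 1.22 and Slc2a2 between 0.86 and 1.25. The separation of these libraries made that positive sign nearly certain in advance. With epithelial scaling 5 of the 6 stayed positive. In Cpa3Cre/+ jejunum the same contrast was 0.050 for Slc5a1 and −0.072 for Slc2a2, with a median of −0.17, and 0 were called (0% of all genes). Leaving out 1 library moved Slc5a1 there from −0.67 to 0.61 and Slc2a2 from −1.06 to 0.56, the lowest without Cpa3Cre/+ day 1 replicate 1 and the highest without replicate 2. The interaction above, −1.09 ± 0.66 for Slc5a1 and −1.14 ± 0.69 for Slc2a2, did not pass (edgeR adjusted p = 0.845 for each), so the genotypes were not shown to differ. Averaged over genotypes the day 1 contrast was 0.60 for Slc5a1 and 0.50 for Slc2a2, and 0 of the 6 were called (0% of all genes, 545 with an unadjusted p under 0.05).

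On day 3, averaged over genotypes, the 6 genes ran from −0.54 (Lct) to 0.29 (Slc5a1) against immunized mice and 0 were called (0% of all genes), with a median of 0.18 in Cpa3+/+ and −0.48 in Cpa3Cre/+ jejunum (0 called in each, 0% of all genes). Day 5 was the state with the most genes called against immunized mice, 1.94% of those tested, yet 0 of the 6 were among them, at −0.34 (Lct) to 0.21 (Slc5a1) and a lowest adjusted p of 0.754. In Cpa3+/+ jejunum all 6 were negative on day 5, −0.74 (Treh) to −0.13 (Slc5a1) with a median of −0.43 and 0 called (0% of all genes). In Cpa3Cre/+ jejunum 5 of 6 were positive with a median of 0.28 and a highest value of 0.55 for Slc5a1, and 0 were called beside 0.0348% of all genes. DESeq2 called none of the 6 in any comparison.

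Across the 23 libraries the 6 genes together tended to be higher where the epithelial structure transcripts were higher. The summed CPM of the 6 had a Pearson correlation of 0.776 with the summed CPM of the epithelial structure genes on log2 scales, and 0.633 without the library labelled Cpa3Cre/+ naive replicate 1. Between members the correlation of log2 CPM was highest for Sis with Mgam (r = 0.904), Sis with Slc2a2 (0.885) and Slc5a1 with Slc2a2 (0.88), and lowest for Treh with Mgam (0.466). Without the library labelled Cpa3Cre/+ naive replicate 1 these were 0.882, 0.859, 0.855 and 0.23. These are descriptions over 23 libraries whose points share depth, epithelial share and scaling.

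**Figure D3:**
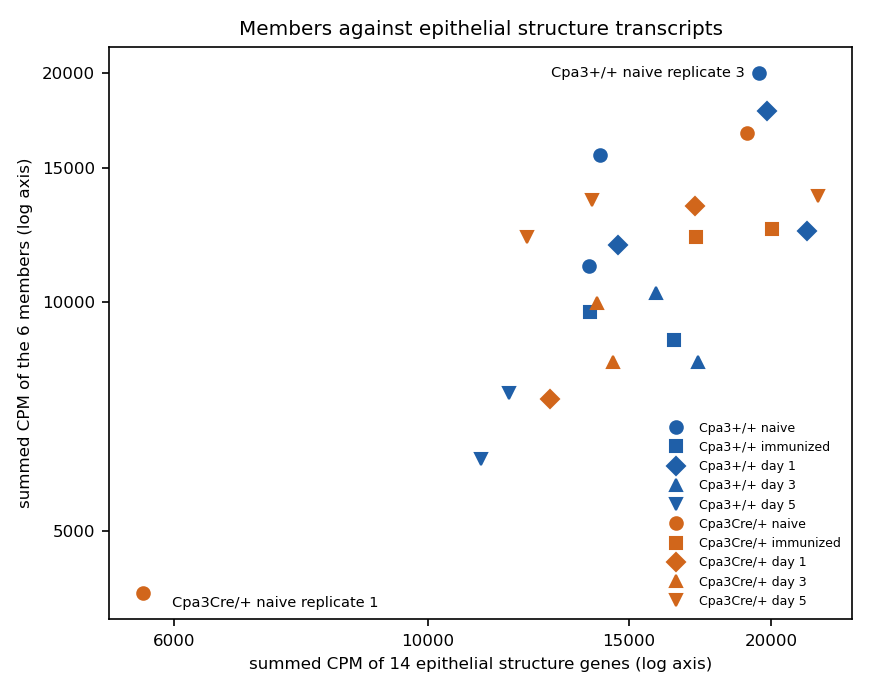
Summed CPM of the 6 genes (vertical axis, log) against summed CPM of 14 epithelial structure genes (horizontal axis, log), with 1 symbol per library, coloured by genotype and shaped by state. The library labelled Cpa3Cre/+ naive replicate 1 lies alone at 5633 CPM on the horizontal axis, and the Cpa3+/+ day 5 pair lies at 11128 and 11781 CPM, the next lowest values on that axis, with summed levels of 6216 and 7577 CPM.

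The genes most like each member were taken among 13421 genes with at least 1 CPM on average. Treh had the closest company, the anion exchanger Slc26a6 (r = 0.981), Smpdl3b (0.977), a phosphodiesterase of sphingolipids, and Ephx2 (0.961), an epoxide hydrolase. Lct was most like Vil1 (0.936), which encodes the microvillus protein villin, Slc3a1 (0.923), a subunit of an amino acid transporter, and Mtmr4 (0.922). The genes like Slc5a1 included Entpd7 (0.914) and Slc2a5 (0.899), the fructose transporter. Slc2a2 was most like Prrx1 (0.905), Atp1b1 (0.9), a sodium pump subunit, and Tkfc (0.899), a kinase of fructose breakdown. Sis had Pptc7 (0.896), Dennd1b (0.887) and Uso1 (0.879), and Mgam had Arfgef2 (0.923), Abcc2 (0.901) and Bach1 (0.899). All are Pearson correlations of log2 CPM over the same 23 libraries, and those named ran from 0.851 to 0.963 without the library labelled Cpa3Cre/+ naive replicate 1.

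The wider pathway was read from lists of genes for other sugar carriers, regulators and the fate of glucose. On day 5 the genotype difference of the 14 glycolysis genes had a median of 0.82 with 12 positive, among them Eno1 at 1.18 ± 0.42 and Gpi1 at 0.93 ± 0.34. The 8 genes of sodium and proton exchange and energy coupling had a median of 0.47, with the sodium-proton exchanger Slc9a3 at 1.49 ± 0.46. The 7 fructose genes were all positive with a median of 1.36, and Slc2a5 had 1.84 ± 0.47 and the fructose kinase Khk 1.51 ± 0.45. Among 16 other glucose transporters and starch-digesting enzymes 9 were positive with a median of 0.10, with Slc2a7 at 1.33 ± 0.49 and Slc2a9 at 0.79 ± 0.35. Among 23 transcription factors and sensors 13 were positive with a median of 0.13, with the incretin gene Gcg at −0.77 ± 0.28 and the sterol receptor Nr1h3 at 0.94 ± 0.37. None of the genes of these 5 lists passed (lowest edgeR adjusted p = 0.524). The same day 5 difference had a median of 0.57 over 17 brush border peptidases and amino acid transporters and 0.93 over 13 fat absorption genes, with 14 and 13 positive. The 9 crypt genes and the 7 smooth muscle genes were all negative, with medians of −0.53 and −0.38. Scaled to the epithelial genes, the medians kept their sign (0.91 for fructose, 0.31 for glycolysis, 0.40 for fat absorption and 0.13 for peptidase genes) except those of the other glucose transporters (−0.34) and of the transcription factors and sensors (−0.27).

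**Figure D4:**
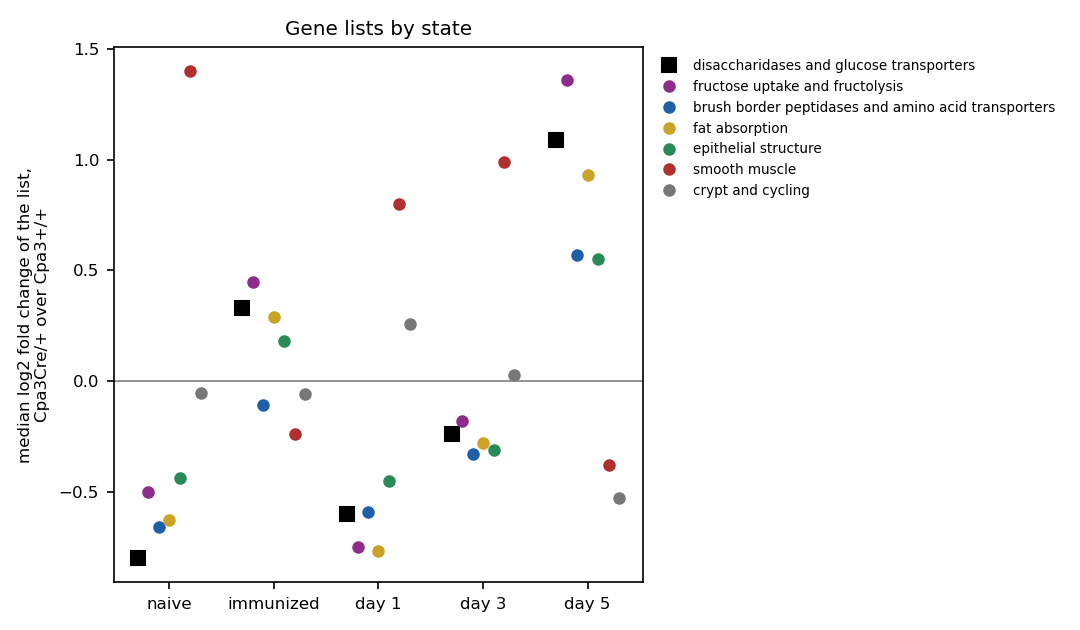
Median log2 fold change of Cpa3Cre/+ over Cpa3+/+ (vertical axis) in each state (horizontal axis) for the 6 genes (black squares) and for 6 other gene lists (coloured dots). On day 5 the 6 genes (1.09), the fructose genes (1.36), the fat absorption genes (0.93) and the epithelial structure genes (0.55) lie above 0 while crypt (−0.53) and smooth muscle (−0.38) genes lie below, all with TMM scaling. With epithelial scaling the signs were the same, with the epithelial structure genes at 0.035.

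On day 5 against immunized mice 1.94% of all genes passed the threshold, and Gaa was among the list genes that did. Gaa, the lysosomal acid glucosidase that breaks down glycogen, fell by 0.93 on the log2 scale (−0.93 ± 0.21, edgeR adjusted p = 0.0317), 1 of 16 genes of its list. The call did not stand when the epithelial genes set the scale (adjusted p = 0.53), with females alone (adjusted p = 0.091) or with the replicate number as a block (adjusted p = 0.0773). Gaa also missed the threshold without either immunized Cpa3+/+ library, either immunized Cpa3Cre/+ library, Cpa3+/+ day 5 replicate 1, or Cpa3Cre/+ day 5 replicates 1 or 2 (adjusted p = 0.0593 to 0.133). On day 1 in Cpa3+/+ jejunum Sgk1, a kinase that regulates sodium transport, had the smallest p of its list at 3.22 ± 0.84, and the glucose-responsive gene Txnip had 1.39 ± 0.52, both with an edgeR adjusted p of 0.847.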

How the data were processed

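The authors deposited unnormalized read counts by Ensembl gene for 23 libraries, made with STAR and featureCounts (Subread 1.5.1) on mm10/GRCm38, per the submitters' processing notes. Libraries were made with an Illumina TruSeq stranded kit, per the labels' protocols. The annotation release and strand setting are not given in the sources used here. Symbols and positions came from GENCODE vM21 for 55227 of 55487 genes, and the other 260 kept their identifier. Genes with low counts were removed with filterByExpr, libraries were scaled by TMM, and differences were tested with the edgeR 4.0.16 robust quasi-likelihood F test in R 4.3.3. The model held 10 group means and sex, leaving 12 residual degrees of freedom, and the biological coefficient of variation was 28.6%. Tests were two-sided, with Benjamini-Hochberg adjustment over 17236 genes and a threshold of 0.05. Standard errors were derived from the F statistic (size of the log2 fold change divided by the root of F) and are approximate. The fit was tested on simulated data.

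The members and lists were chosen with earlier results of these data known. The 13 genotype, state and interaction comparisons were planned, and the 8 comparisons within a genotype and the counts of groups that do not overlap were added after values had been seen. A log2 fold change with its error is given for members at an unadjusted p under 0.05, for list genes past the threshold (at most 4) or else the 2 with the smallest p. Other values that carry an error were chosen after they were seen, and some genes that the rules would name are not reported here. For likeness the 3 genes with the highest Pearson correlation of log2 CPM (prior count 2) were taken, leaving out members and predicted genes. Alternatives were DESeq2 size factors, epithelial size factors, no low-count filter, the DESeq2 1.42.0 test, no sex term, females alone, the replicate block, and each library left out. Promoter sequences are RefSeq, matched for 6 of 6 members. No 2 libraries of a group had identical counts.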

Additional observations from a re-analysis of the deposited data

Results flagged for a closer look

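Each gene was examined over the 4 or 5 libraries of a state, both genotypes together, for a highest or lowest library set apart by a gap that Dixon's 95% limit does not allow, and 2 of 30 such groups had one, where chance gives about 1 in 20. Both were lactase. In the naive state Lct was 397 CPM in the library labelled Cpa3Cre/+ naive replicate 1, and the gap to the next library was 0.791 of the range of the 5 libraries. In the immunized state Lct was 2693 CPM in Cpa3Cre/+ immunized replicate 2, with a gap of 0.874 of the range of the 4 libraries.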

How the results depend on the processing

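The 6 genes were tested in 21 comparisons under 31 other settings, 23 of which left out 1 library each, and 6 of 126 pairs of gene and comparison were called under any of them. With no filter on low counts, which tests 32067 genes, 2 genes were called for the day 5 genotype difference, Treh (1.34 ± 0.35, adjusted p = 0.0148) and Slc2a2 (1.32 ± 0.34, adjusted p = 0.0128), and 1 for immunized against naive in Cpa3Cre/+. With female libraries alone 1 gene was called for immunized against naive and 3 in Cpa3Cre/+. Leaving out 1 library gave 0 to 1 called for immunized against naive and 0 to 3 for that comparison in Cpa3Cre/+, the highest in both without Cpa3Cre/+ naive replicate 2. Females alone and leaving out Cpa3Cre/+ naive replicate 2 each kept the library labelled Cpa3Cre/+ naive replicate 1 as the only Cpa3Cre/+ naive library. These 2 settings are thus not separate evidence. The cause of the calls was not tested. In all other combinations the count stayed 0. Leaving out 1 library changed the sign of 58 of the 126 fold changes at least once. None of the 7 member fold changes with an unadjusted p under 0.05 changed sign under any setting. The replicate number as a block gave 0 called in every comparison. Deviations of same-numbered libraries of the 2 genotypes within a state correlated from −0.266 to 0.35. With 2 libraries per group, replicates 1 and 2 give the same value by construction (−0.179 for immunized, −0.22 for day 3). So few values cannot show whether the numbers pair the libraries. Coding lengths of RefSeq proteins were not run, and coding lengths of the annotation, chosen after seeing the data, kept the order of mean levels. Leaving out both libraries farthest apart on the first principal component, also chosen after seeing the data, gave 0 called in every comparison. Groups of 2 libraries and a coefficient of variation of 28.6% limit what could be called.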
